A study of Mus musculus with 10 samples.

Results

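Igkv8-16 is a V segment of the mouse immunoglobulin kappa light chain locus (Igk). It was taken as every line of the deposited repertoire table whose V call, with the allele removed, was IGKV8-16, and it is 1 of the 114 V segments in that table. It was chosen by its share of the counts, which was the highest of all V segments when averaged over the 10 samples, so its level is given below as a description. It held 9380 of the 161780 counts (5.80%), on 1965 lines that all carried 1 allele and the same V call from both reads. The other 9 segments of the Igkv8 family are used for comparison.

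Igk transcripts were amplified from RNA of small pre-B cells sorted by flow cytometry from bone marrow, and sequenced as 151-bp read pairs. The mice were C57Bl6, aged 6 to 12 weeks, and formed 2 groups of 5 samples, one labelled WT and the other rsCBE. The series' design text puts a delta before rsCBE, the labels do not spell the name out, and they do not say whether each sample came from a separate animal, so the p-values below measure the spread between these samples. A table of transcripts from 1 locus holds no markers with which the labelled cell type could be checked. The title of the study concerns chromatin topology set by CTCF and receptor editing, and the comparison asks how the genotype bears on the light chain repertoire.

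A kappa light chain gene is made in pre-B cells by joining 1 V segment to 1 J segment. The cut ends lose bases, and the joint codes for the last part of CDR3, a loop of the antigen-binding site. A joint whose CDR3 length is not a multiple of 3, or that holds a stop, is out-of-frame and gives no light chain. An allele that has joined to an upstream J segment can join again, from a V segment further away to a J segment further downstream, and this repeated rearrangement is the basis of receptor editing. J1 is the first and J5 the last J segment in the locus, and J3 of the mouse is a non-functional segment.

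In the GENCODE M21 annotation of GRCm38, the build that the submitters' processing notes name as mm10, Igkv8-16 (ENSMUSG00000076591.3) lies on the minus strand at chr6:70386672-70387252, 335.3 kb from J1. The J segments lie on the plus strand, so that Igkv8-16 joins them by inversion of the DNA between. Exon 1 spans 70387190 to 70387252 and exon 2 spans 70386672 to 70386987 in its longer transcript. The last 23 bases of exon 2 are the part of CDR3 that the V segment brings, and the capitals in the J segments mark the bases that each brings to CDR3. These germline ends, read 5′ to 3′ from the annotated transcripts, are shown because the recurrent joints described below are built from them.
Igkv8-16 end, chr6:70386672-70386694, minus strand: cagcagcatttacacattcctcc
Igkj1, chr6:70722562-70722599, plus strand: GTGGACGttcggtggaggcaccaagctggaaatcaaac
Igkj2, chr6:70722916-70722954, plus strand: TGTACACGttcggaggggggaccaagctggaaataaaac
Igkj4, chr6:70723548-70723585, plus strand: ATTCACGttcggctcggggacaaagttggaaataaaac
Igkj5, chr6:70723886-70723923, plus strand: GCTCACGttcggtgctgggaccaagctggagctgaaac

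The most used 3 of the other Igkv8 segments are shown for the same stretch, to let their ends be set against that of Igkv8-16. Capitals mark bases that differ from Igkv8-16 when both are read from the first CDR3 base on. Over the V exon, Igkv8-19 and Igkv8-34 were the nearest to Igkv8-16, each at 81.8% identity, and no segment outside the Igkv8 family exceeded 73.4% (Igkv7-33). No near-identical copy was therefore found among the annotated segments that were compared.
Igkv8-27 end, chr6:70171809-70171826, minus strand: caTcaATaCCtCTCcTCG
Igkv8-19 end, chr6:70340876-70340898, minus strand: cagAaTGattATAGTTAtcctcc
Igkv8-21 end, chr6:70314895-70314914, minus strand: AagcaATCttATAaTCttcc

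Igkv8-16 led the repertoire in replicates 3 to 5 of both genotypes and not in replicates 1 and 2. Replicates 1 and 2 of each genotype were deposited as 1 library each, and replicates 3 to 5 as 2 parts each, a and b, which were added. In WT, the share of Igkv8-16 among all counts was 1.86% and 2.51% in replicates 1 and 2, and 8.99%, 8.39% and 10.96% in replicates 3 to 5. In rsCBE it was 2.55% and 2.60% in replicates 1 and 2, and 11.2%, 10.6% and 9.74% in replicates 3 to 5. The 2 sets did not overlap in either genotype, and within each set the genotypes lay close together. Igkv8-16 ranked first of the 114 V segments in all 6 samples of replicates 3 to 5, and 17, 8, 10 and 9 in WT replicates 1 and 2 and rsCBE replicates 1 and 2. By set means it was rank 8 at 2.38% ± 0.347 (SD, n = 4) and rank 1 at 9.98% ± 1.14 (SD, n = 6), while Igkv19-93 led replicates 1 and 2 at 5.51%. Over all 10 samples its mean was 6.94%, and the segment just below was Igkv19-93 at 4.38%.

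**Figure D1:**
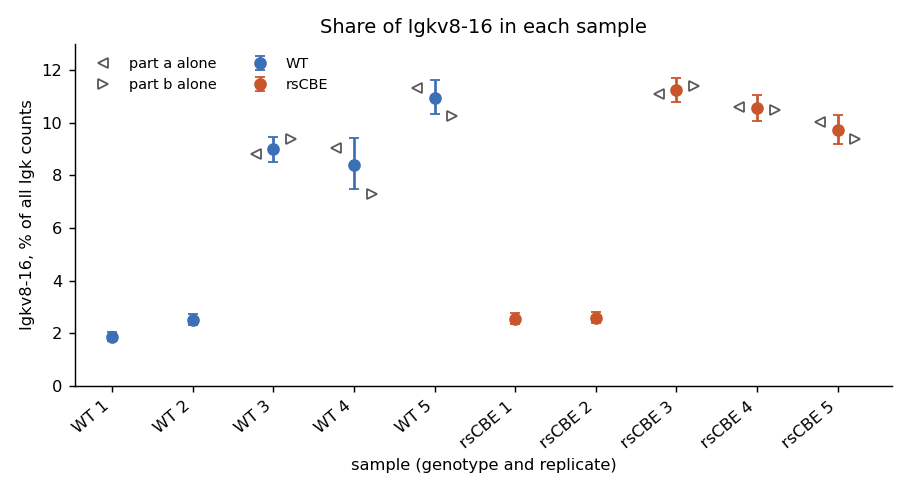
Share of Igkv8-16 among all Igk counts (y axis, percent) in each sample (x axis), by genotype. Circles are samples with their Wilson 95% interval for counting error, and open triangles are parts a and b alone. The 4 samples of replicates 1 and 2 lie between 1.86% and 2.60%, and the 6 of replicates 3 to 5 between 8.39% and 11.2%.

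The parts of a replicate gave like shares. They differed by 0.134 percentage points in rsCBE replicate 4, the smallest difference, and by 1.76 points in WT replicate 4, the largest, where part a held 9.06% and part b 7.30%. WT replicate 4 is also the sample with the fewest counts, 3109 in all and 261 of Igkv8-16. The other samples had 9161 to 24083 counts, of which 424 to 2054 were of Igkv8-16. Wilson 95% intervals, which cover counting error only, ran from 7.47% to 9.42% in WT replicate 4 and from 10.8% to 11.7% in rsCBE replicate 3, the sample with most Igkv8-16 counts.

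The share of Igkv8-16 among distinct clonotypes was also higher in replicates 3 to 5. Joins of a sample that share V, J and CDR3 nucleotides are counted as 1 clonotype. Igkv8-16 made up 1.997% to 2.29% of all clonotypes in replicates 1 and 2 and 5.24% to 8.82% in replicates 3 to 5. It had 3.05 to 4.42 counts per clonotype in replicates 1 and 2 and 5.07 to 9.05 in replicates 3 to 5. For all other V segments the corresponding figures were 3.38 to 3.76 and 3.66 to 4.84. Counts per clonotype rise with the number of counts sampled, which is higher for Igkv8-16 where its share is, so these figures are no separate measure. At an equal depth of 261 counts, WT replicates 1 to 5 had 99.1, 83.6, 72.5, 43 and 85.0 distinct Igkv8-16 clonotypes. The rsCBE replicates had 86.9, 80.9, 76.7, 78.2 and 78.4, so that the sets overlapped in WT. In RNA of a cell population, more cells with an Igkv8-16 join and more transcript from each cannot be told apart.

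With genotype in the model, edgeR put the share of Igkv8-16 in replicates 3 to 5 above that in replicates 1 and 2 by 2.07 on the log2 scale (SE 0.095). At an adjusted p of 0.05 (edgeR quasi-likelihood, Benjamini-Hochberg), 56 of 98 V segments passed in this contrast (57.1%), 30 of them higher in replicates 3 to 5 (30.6%) and 26 lower (26.5%). Igkv8-16 ranked 5 of 98 by fold change, against a median of -0.07. Since its high share in replicates 3 to 5 is what made it the most used segment, this difference is given with no test. The labels name no difference between the 2 sets, and what set them apart was not tested.

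**Figure D2:**
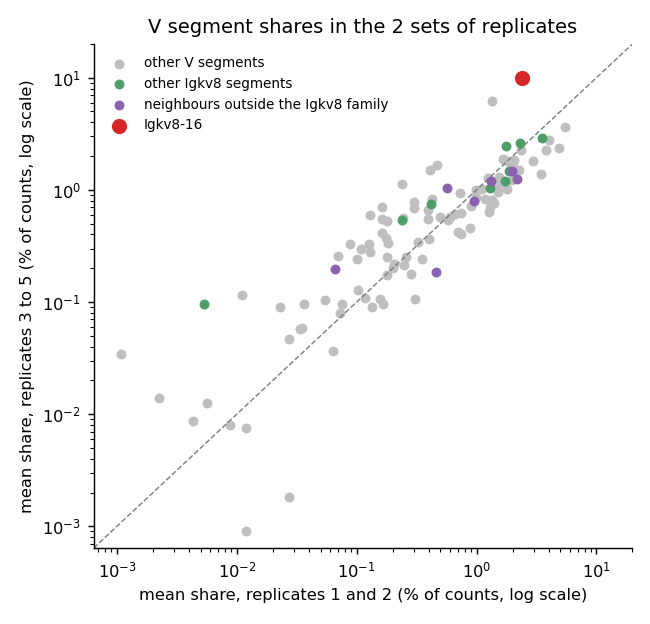
Mean share of each V segment in replicates 1 and 2 (x axis, percent, log scale) and in replicates 3 to 5 (y axis, percent, log scale), for the 112 segments above 0 in both. The dashed line marks equal shares. Igkv8-16, at 2.38% and 9.98%, is the highest point and lies above the line, while other Igkv8 segments and chromosomal neighbours lie on both sides of it.

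The other segments of the Igkv8 family are given beside Igkv8-16, and about as many of them passed, in either direction, as of all V segments. Of its 9 other segments, 8 could be tested between the sets, and 3 passed as higher in replicates 3 to 5 and 2 as lower, where 30.6% and 26.5% of all segments tested did. Their median log2 difference was -0.04, against -0.07 over all segments. Igkv8-27, the most used of them, averaged 3.51% in replicates 1 and 2 and 2.88% in replicates 3 to 5. Igkv8-19 averaged 2.31% and 2.64%, and Igkv8-21 averaged 1.76% and 2.44%. Together the 9 segments held 13.2% and 13.1% of the counts in the 2 sets.

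Of the 10 nearest V segments on the chromosome, 5 on each side, 4 passed as higher in replicates 3 to 5, 2 as lower and 4 did not pass, close to the 57.1% of all segments that passed. Their median log2 difference was 0.04. Igkv6-17, which lies 15.2 kb from Igkv8-16, averaged 1.98% in replicates 1 and 2 and 1.49% in replicates 3 to 5. Igkv8-19 and Igkv8-21, named above, were the most used neighbours. The 10 segments together held 12.0% of the counts in each set.

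The segments whose share followed that of Igkv8-16 most closely were Igkv4-57, Igkv1-135, Igkv3-7, Igkv9-128 and Igkv4-77. The measure was Pearson's r of the log2 share, with 0.5 counts added, over 10 samples, and it was 0.979, 0.975, 0.966, 0.954 and 0.929 in that order. The samples fall into the 2 sets described above, so that these values mainly carry the difference between the sets. Over the 6 samples of replicates 3 to 5 alone, r was 0.79 for Igkv4-57, 0.17 for Igkv3-7, 0.72 for Igkv9-128 and -0.14 for Igkv4-77. For Igkv1-135, the segment second in share in those samples, it was -0.33. Replicates 1 and 2 are 4 samples, too few for a correlation. Igkv9-128 and Igkv4-77 are annotated as pseudogenes.

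The share of Igkv8-16 did not differ between the genotypes beyond the spread of the samples. WT averaged 6.54% ± 4.09 (SD, n = 5) and rsCBE 7.34% ± 4.38 (SD, n = 5), and most of that spread lay between the 2 sets of replicates. The log2 fold change of rsCBE against WT was 0.17 (SE 0.57; edgeR quasi-likelihood, adjusted p = 0.992). Of the 98 V segments tested, 0 passed (0%), 7 had an unadjusted p under 0.05, and DESeq2 called 0, with 8 under 0.05 unadjusted. Within replicates 1 and 2 alone the log2 fold change was 0.23, and within replicates 3 to 5 alone it was 0.15, with an interaction that did not pass (adjusted p = 0.975 by edgeR). A model with a term for the 2 sets gave 0.18 (SE 0.086, adjusted p = 0.272 by edgeR), where 2 of 98 segments passed (2.04%), Igkv8-19 among them at 0.54 (SE 0.13, adjusted p = 0.032).

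When counts were split by J segment, the pair of Igkv8-16 with J5 passed as higher in rsCBE in the model with a term for the 2 sets and in no other fit that was run. Without a term for the sets, 0 of the 270 V-J pairs tested passed (0%), the 4 Igkv8-16 pairs included, while 25 had an unadjusted p under 0.05 and DESeq2 called 3 pairs. As shares of all counts, the log2 fold changes of rsCBE against WT were -0.06 for J1, -0.08 for J2, 0.40 for J4 and 0.53 for J5 (SE 0.57, adjusted p = 0.795 by edgeR). With a term for the 2 sets, 7 of 270 pairs passed (2.59%), and Igkv8-16 with J5 was one of them at 0.59 (SE 0.16, adjusted p = 0.0456 by edgeR). With the replicate number as a block it was 0.63 (SE 0.16, adjusted p = 0.0510 by edgeR), which did not pass, and 0 of 270 pairs did (0%), with 48 under 0.05 unadjusted. Its value was 0.75 within replicates 1 and 2 (adjusted p = 0.0518) and 0.49 within replicates 3 to 5 (adjusted p = 0.588, both by edgeR).

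J use within Igkv8-16 takes out the level of the segment itself. On average J1 was the most used J of Igkv8-16 in WT, and in rsCBE J1 and J5 were used about equally. The J1 share of Igkv8-16 counts was 44.6%, 42.0%, 42.8%, 37.2% and 41.8% in WT replicates 1 to 5. In rsCBE replicates 1 to 5 it was 31.9%, 32.1%, 38.9%, 36.3% and 30.8%. The groups overlapped by 1 pair of samples, WT replicate 4 and rsCBE replicate 3. The means were 41.7% ± 2.74 in WT and 33.99% ± 3.42 in rsCBE (SD over 5 samples each), a change of -7.68 percentage points from WT to rsCBE (two-sided exact permutation p = 0.0159, and 0.0635 adjusted over the 4 J segments). J1 was lower in rsCBE in 5 of the 5 pairs of the same replicate number (exact sign-flip permutation p = 0.0625, the smallest that 5 pairs can give, and 0.25 adjusted). No label states that samples of equal number are pairs. With labels exchanged only within each set of replicates, the exact permutation p was 0.0333 (adjusted 0.133). The smallest p that 5 against 5 samples can give is 0.00794.

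J5, the J segment furthest downstream, showed the opposite difference in all but 1 WT sample. Its share was 22.2%, 25.5%, 19.8%, 42.5% and 23.9% in WT replicates 1 to 5. In rsCBE replicates 1 to 5 it was 34.9%, 33.9%, 33.7%, 32.4% and 39.3%. WT replicate 4 lay above every rsCBE sample, with a Wilson 95% interval of 36.7% to 48.6% on 111 of its 261 counts, and the other 4 WT samples lay below every rsCBE sample. The means were 26.8% ± 9.05 and 34.8% ± 2.64 (SD over 5 samples each), a difference of 8.06 points (two-sided exact permutation p = 0.0952, adjusted 0.190). Without WT replicate 4, the differences were 12.0 points for J5, -8.80 for J1 and -3.84 for J2, each with an adjusted exact permutation p of 0.0317. In the other 9 fits that left out 1 sample, J5, J1 and J2 did not pass. With each clonotype counted once, the J5 difference was 4.70 points and the J1 difference -8.72 points (adjusted exact permutation p = 0.0476 for both). The J5 difference changed sign when the top joint of each sample was left out, as given with the joints below.

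J2 and J4, the J segments between them, differed less by counts. J2 took 20.3% ± 3.40 in WT and 17.8% ± 1.63 in rsCBE (SD over 5 samples each), a difference of -2.51 points (exact permutation p adjusted 0.233). J4 took 11.3% ± 3.41 and 13.4% ± 2.19 (SD over 5 samples each), a difference of 2.13 points (exact permutation p adjusted 0.302), which was 0.649 points without WT replicate 4. With each clonotype counted once, the J4 difference was 4.72 points, close to that of J5 (exact permutation p adjusted 0.0952). J3 had 0 of the 9380 Igkv8-16 counts, which allows a share of up to 0.032% (3 counts) over the 10 samples pooled, for counting error only. All other V segments had 62 of 152400 counts on J3 (0.0407%), at 0.0123% to 0.281% by sample, and this difference was not tested.

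The direction of the J1 and J5 differences was the same in both sets of replicates. In replicates 1 and 2, rsCBE minus WT was -11.3 points for J1 and 10.6 points for J5, and the genotypes did not overlap. In replicates 3 to 5 it was -5.27 points for J1 and 6.40 points for J5, and the genotypes overlapped. For J5 that overlap came only from WT replicate 4, at 42.5%. WT replicates 3 and 5, at 19.8% and 23.9%, lay below every rsCBE sample. Groups of 2 against 2 cannot reach a p below 0.333 and groups of 3 against 3 none below 0.10 in the exact permutation test. The differences were also of like size in out-of-frame joins, which give no light chain, at -8.12 points for J1 (adjusted p = 0.190) and 8.41 for J5 (adjusted p = 0.190, exact permutation tests). In in-frame joins J1 differed by -7.23 points (adjusted p = 0.0317) and J5 by 7.72 points (adjusted p = 0.0952, exact permutation tests).

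**Figure D3:**
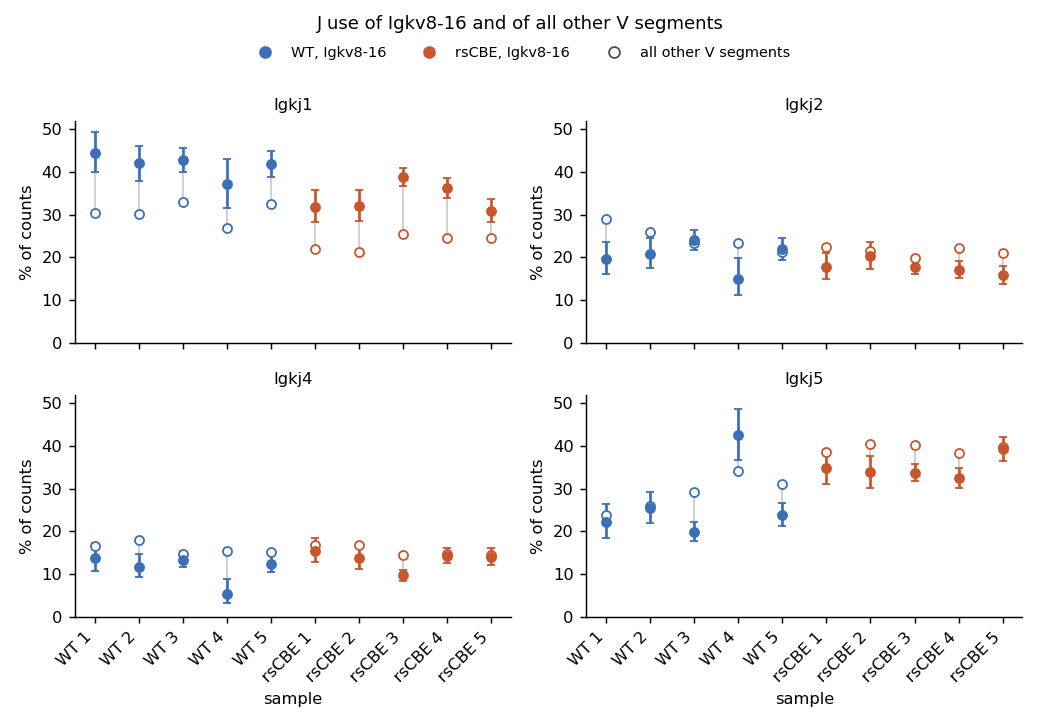
Share of J1, J2, J4 and J5 (y axes, percent of counts) among Igkv8-16 counts (filled circles with Wilson 95% intervals) and among counts of all other V segments (open circles) in each sample (x axis). J1 of Igkv8-16 lies above that of the other segments in all 10 samples, and J5 lies below in 9 of 10, WT replicate 4 being the exception.

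Set against the rest of its own repertoire, Igkv8-16 was joined more to J1 and mostly less to J5. The J1 share of Igkv8-16 exceeded that of all other V segments in 10 of 10 samples, by 6.27 to 14.2 points, and this comparison was chosen after its values were seen and is given with no test. The other segments had a J1 share of 26.8% to 32.9% in WT and 21.2% to 25.6% in rsCBE. The other segments had a J5 share of 28.8% ± 4.08 in WT and 39.5% ± 0.966 in rsCBE (SD over 5 samples each), and the genotypes did not overlap, at 23.9% to 34.2% against 38.4% to 40.5%. The other Igkv8 segments had 34.2% ± 4.34 and 45.8% ± 2.90. The J5 difference between the genotypes was thus in the same direction in Igkv8-16 and in the rest of the repertoire. The J1 excess of Igkv8-16 averaged 11.1 points ± 1.95 in WT and 10.4 ± 2.61 in rsCBE (SD over 5 samples each), and the difference between these was not tested. Among the 98 V segments tested, Igkv8-16 ranked 25 by mean J1 share, where the median segment had 22.1%, and 64 by mean J5 share, where the median was 37.0%.

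For J5, the share within Igkv8-16 was below that of the other V segments in 9 of 10 samples. The mean difference was -3.37 points ± 5.10 (SD, n = 10; two-sided exact sign-flip permutation p = 0.0723, where 0.00195 is the smallest possible). WT replicate 4 was the exception, at 8.36 points above. Without WT replicate 4 the mean was -4.67 points (exact sign-flip permutation p = 0.0039). Against the other Igkv8 segments alone it was -9.23 points (exact sign-flip permutation p = 0.00586), with Igkv8-16 lower in 9 of 10 samples. With each clonotype counted once it was -7.08 points (exact sign-flip permutation p = 0.0039).

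J use differed widely within the Igkv8 family. The mean J1 share over samples was 37.8% for Igkv8-16, 31.0% for Igkv8-21, 26.4% for Igkv8-27 and 5.43% for Igkv8-19. Igkv8-19 is among the segments nearest in sequence to Igkv8-16, lies 45.8 kb from it on the same strand, and has the same last 6 bases, as the ends printed above show. The J5 means of the same segments were 30.8%, 34.3%, 36.9% and 40.7%.

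The in-frame share of Igkv8-16 counts did not differ between the genotypes beyond the spread of the samples. Of the 9380 counts, 6320 were in-frame, 2990 had a CDR3 length that is not a multiple of 3, and 70 had a CDR3 length that is a multiple of 3 but held a stop. The in-frame share was 60.4%, 67.5%, 65.9%, 70.5% and 72.1% in WT replicates 1 to 5. In rsCBE replicates 1 to 5 it was 66.6%, 69.4%, 66.6%, 66.9% and 68.1%, within the range of WT. The means were 67.3% ± 4.57 and 67.5% ± 1.23 (SD over 5 samples each), a difference of 0.257 points (two-sided exact permutation p = 0.921). The difference was 4.09 points in replicates 1 and 2 alone and -2.30 points in replicates 3 to 5 alone. The first of these rests largely on WT replicate 1, at 60.4% against 67.5% in WT replicate 2.

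By counts, the in-frame share of Igkv8-16 lay on either side of that of the other V segments, whose shares ran from 60.5% to 76.9%. Igkv8-16 was lower in 4 samples and higher in 6, with a mean difference of -0.33 points ± 6.86 (SD, n = 10; exact sign-flip permutation p = 0.902). The gaps ran from -16.5 points in WT replicate 1, at 60.4% against 76.9%, to 7.58 points in rsCBE replicate 5. The mean gap was -3.18 points in WT and 2.53 in rsCBE, and -4.59 in replicates 1 and 2 and 2.52 in replicates 3 to 5, and these differences were not tested. Without WT replicate 1 the mean gap was 0.151 points in WT and -0.613 in replicates 1 and 2. With each clonotype counted once, 46.8% of Igkv8-16 clonotypes and 52.7% of the others were in-frame on average, a difference of -5.94 points (exact sign-flip permutation p = 0.0195) with Igkv8-16 lower in 7 of 10 samples. In-frame Igkv8-16 joins thus held more counts per clonotype than out-of-frame joins.

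CDR3 length was concentrated at 1 value. A length of 27 nucleotides held 82.6% to 90.0% of the in-frame counts and 52.6% to 62.5% of all Igkv8-16 counts in each sample. The mean length of in-frame joins was 26.96 nucleotides ± 0.18 in WT and 26.96 ± 0.075 in rsCBE (SD over 5 samples each; exact permutation p = 0.992). Among out-of-frame joins, 26 and 25 nucleotides were the most frequent lengths, with 9.78% and 7.27% of all Igkv8-16 counts.

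**Figure D4:**
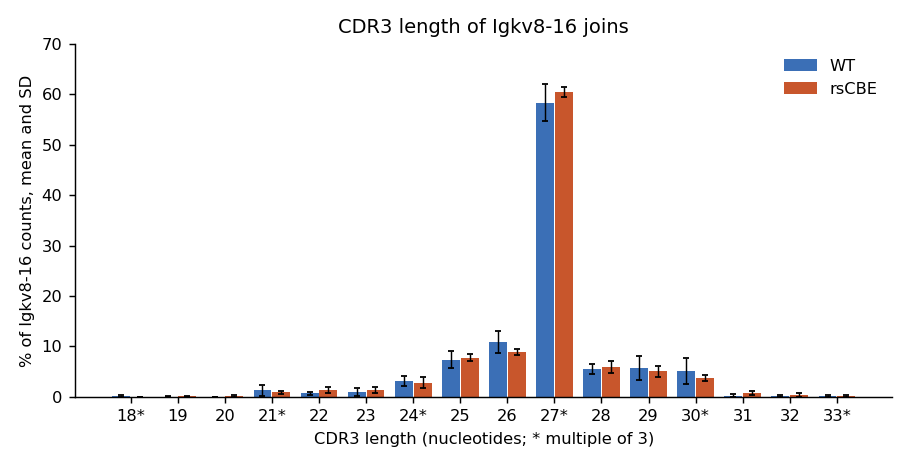
CDR3 length in nucleotides (x axis, from 18 to 33; asterisks mark multiples of 3) against the share of Igkv8-16 counts (y axis, percent), as mean bars with SD over 5 samples of each genotype. A length of 27 stands out at 58.4% in WT and 60.5% in rsCBE, with lengths of 25, 26, 28, 29 and 30 next.

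Most Igkv8-16 counts came from a few joints that recurred in every sample. The 8 named here were each found in 10 of 10 samples and are, among such joints, those with the highest mean share. Small letters are germline V bases and capitals are the bases that follow the match to the V end, all of which match the J end, so that none of the 8 holds an inserted base.
Joint 1, J5, in-frame: cagcagcatttacacattccGCTCACG
Joint 2, J1, in-frame: cagcagcatttacacattccGTGGACG
Joint 3, J2, in-frame: cagcagcatttacacattccGTACACG
Joint 4, J1, in-frame: cagcagcatttacacattcctcGGACG
Joint 5, J5, out-of-frame: cagcagcatttacacattcctcACG
Joint 6, J1, out-of-frame: cagcagcatttacacattcctGGACG
Joint 7, J5, in-frame: cagcagcatttacacattcctcTCACG
Joint 8, J1, in-frame: cagcagcatttacacattcctccGACG

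Joints 1, 2 and 3 share the same V end, which has lost 3 bases, and differ in the J segment joined to it. The J end is whole in joints 1 and 2, and has lost 1 base in joint 3. Joints 4, 5 and 7 have lost 1 V base, joint 6 has lost 2, and joint 8 has a whole V end and has lost 3 J bases. In joint 5, 3 bases match both the V and the J end and were assigned to V. In joints 6 and 7 this holds for 1 base each.

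Joint 1, which codes for leucine at residue 8 of CDR3, was the most abundant and held a mean of 13.1% of Igkv8-16 counts. Its share was 9.20%, 10.4%, 6.68%, 16.1% and 10.96% in WT replicates 1 to 5. In rsCBE replicates 1 to 5 it was 13.7%, 14.9%, 15.9%, 16.1% and 17.1%, the last being the highest share of any joint in 1 sample. The groups overlapped only through WT replicate 4. Joint 1 was the top joint in 5 of 5 rsCBE samples and in 1 of 5 WT samples, while in WT the top joint used J1 in 3 samples and J2 in 1.

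Joint 2, with tryptophan at that residue, averaged 12.2% ± 1.54 in WT and 10.7% ± 1.27 in rsCBE (SD over 5 samples each). Joint 3, with tyrosine, averaged 9.48% ± 2.69 and 9.24% ± 0.928. Joint 4, with arginine, averaged 8.81% ± 2.96 and 6.78% ± 0.719. The ranges of the genotypes overlapped for all 8 joints.

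The other joints were rarer. Joint 5 averaged 4.11% over the 10 samples and stood at 10.3% in WT replicate 4, on 27 counts, against 1.42% to 5.20% in the others. Joints 6, 7 and 8 averaged 2.79%, 2.67% and 1.72%. In replicates 1 and 2 and replicates 3 to 5, the means were 3.16% and 4.74% for joint 5, 2.80% and 2.78% for joint 6, 2.67% and 2.67% for joint 7, and 1.70% and 1.73% for joint 8.

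Within the counts of its own J segment, joint 1 took 39.96% ± 4.496 in WT and 44.7% ± 3.94 in rsCBE (SD over 5 samples each). Joint 2 took 29.5% ± 4.56 and 31.5% ± 1.28 of the J1 counts. Joint 3 took 46.2% ± 7.31 and 52.1% ± 3.90 of the J2 counts. The ranges of the genotypes overlapped for each of these, and the shares were not tested. When the top joint of each sample was left out, the genotype differences changed sign, to 1.02 points for J1 (adjusted p = 0.873) and -4.33 for J5 (adjusted p = 0.254, exact permutation tests). That step removed a J5 joint from every rsCBE sample and from 1 WT sample.

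**Figure D5:**
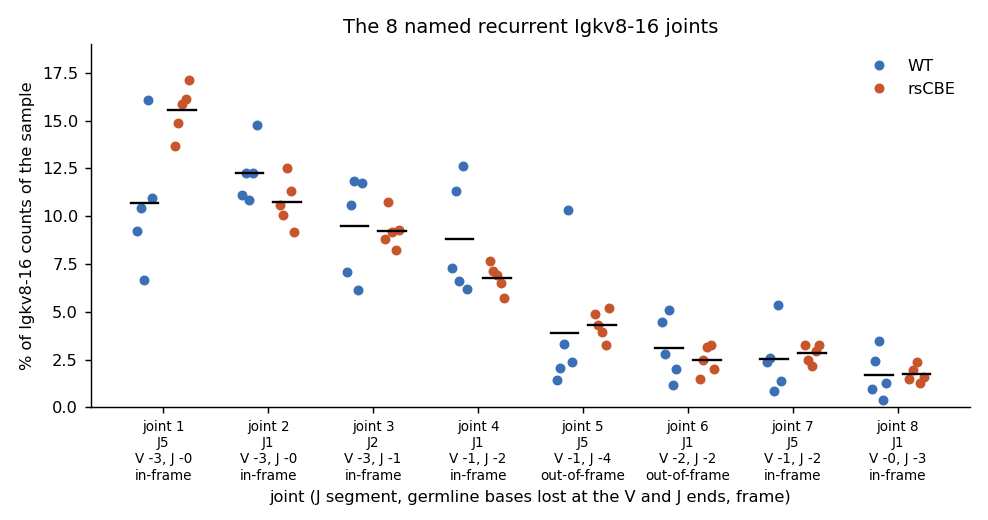
Share of each of the 8 named joints (x axis, with its J segment, germline bases lost at either end, and frame) among the Igkv8-16 counts of a sample (y axis, percent). Points are samples and black lines group means. Joint 1 averages 10.7% in WT and 15.5% in rsCBE, and the points of the genotypes overlap for every joint.

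Across all in-frame CDR3s of 27 nucleotides, residue 8, where V and J meet, took few values. Leucine averaged 28.5% of such counts, tryptophan 22.0%, tyrosine 18.2%, arginine 14.5%, phenylalanine 9.59% and proline 6.27%. Leucine was at 24.4% ± 8.18 in WT and 32.6% ± 3.18 in rsCBE, and tryptophan at 24.4% ± 2.27 and 19.7% ± 2.69 (SD over 5 samples each). Since joint 1 joins J5 and joint 2 joins J1, these residues carry the J use given above and are not a separate measure.

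By counts, most Igkv8-16 joins in every sample held no inserted base, whereas most clonotypes found in 1 sample only did, as given below. Joins with no inserted base held 75.9% to 85.4% of the counts in each sample, and joins that had lost exactly 3 V bases held 39.1% to 52.5%. Joins that had lost 1 V base held 35.6% in WT replicate 4 and 13.8% to 21.0% in the other 9 samples, and joins with a whole V end held 7.77% to 17.2%. The J end was whole in a mean of 46.8% of J1 joins, 75.7% of J4 joins and 58.7% of J5 joins. For J2 joins the figure was 5.51%. Bases that match both ends were assigned to V, so that losses are minima at the V end and maxima at the J end. Igkj2 begins with T, the next germline V base after a V end that has lost 3 bases. A whole J2 end joined there was counted as having lost 1 base, which lowers the J2 figure by an amount that was not tested. The in-frame share averaged 70.3% for J1, 68.2% for J2, 58.0% for J4 and 67.0% for J5. Joints whose start differs from the germline were counted as having inserted bases, and 92.7% of the counts matched the germline V end over its first 15 bases.

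Sharing between samples was concentrated on few clonotypes. Of the 940 distinct Igkv8-16 clonotypes, 16 were found in all 10 samples, and these held 60.2% of the counts, against 30.4% for the clonotypes of other V segments that were found in all 10. A clonotype is found in more samples where its segment has more counts, and Igkv8-16 was chosen as the segment with the highest mean share, so this contrast is given as a description. In single samples the 16 held from 54.95% to 78.5% of Igkv8-16 counts, with a median of 59.8%. Of the 16, 14 had no inserted base and 9 were in-frame, with 8 joined to J1, 2 to J2, 2 to J4 and 4 to J5.

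At the other end, 745 clonotypes (79.3%) were found in 1 sample only and held 9.72% of the counts, and 670 of them had 1 count. Of the 745, 59 (7.92%) had no inserted base. A single base that differed from the germline in the V or J stretch was enough for a join to count as having inserted bases. Bases added at the joint and sequencing or amplification errors could thus not be told apart in these clonotypes. In all, 147 clonotypes were found in both genotypes. At an equal depth of 261 counts, the number of distinct clonotypes was 76.6 ± 21.1 in WT and 80.2 ± 4.02 in rsCBE (SD over 5 samples each), a difference of 3.54 (two-sided exact permutation p = 0.778). WT replicate 4 had 43 clonotypes among its 261 counts, and without it the difference at the same depth was -4.87 (exact permutation p = 0.429). At 424 counts, the lowest number among the remaining 9 samples, it was -7.83 (exact permutation p = 0.444).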

How the data were processed

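Igk amplicons from 10 samples (16 libraries) were analysed from the authors' deposited table, which gives V, J, CDR3 and a count per line, with no normalization. The V caller, read filters and whether a count is a read or a molecule are not given in the sources used here; mm10 is named per the submitters' processing notes. Parts a and b were added and 49 duplicate lines merged. Igkv8-16 and the lists beside it were chosen with earlier results of these data known.

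Counts per V segment and V-J pair were tested with edgeR 4.0.16 (quasi-likelihood, library size as total count, factors of 1, filterByExpr, Benjamini-Hochberg at 0.05), and DESeq2 1.42.0 was an alternative. Other values were compared by exact permutation over all arrangements (numpy 2.4.6), and the unpaired form was checked against scipy 1.17.1. The edgeR step was tested on simulated data. Coordinates and sequences came from GENCODE M21. Named were the 3 most used family members and neighbours, the 5 segments most correlated with Igkv8-16, and the 8 joints with the highest mean share among those in all 10 samples.

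Samples with the same replicate number were treated as pairs in the block and sign-flip tests, although no label pairs them. Their deviations from the group means had correlations of 0.83, 0.82, 0.64, 0.16 and 0.43 over 89 V segments. After the means of the 2 sets were removed too, the correlations were 0.16, 0.16, 0.18, -0.26 and -0.18. The first values thus mainly carry the difference between the sets and do not show that equal numbers are pairs. The values of replicates 1 and 2 are the same by construction, because 2 samples lie equally far on either side of their mean.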

Additional observations from a re-analysis of the deposited data

Results flagged for a closer look

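Within groups of 5 samples, 2 of 20 groups examined held a sample whose gap to the nearest other, divided by the group's range, exceeded 0.71, where chance gives about 1. Both were WT replicate 4. Its J5 share within Igkv8-16 was 42.5%, against 19.8% to 25.5% in the other WT samples, with a ratio of gap to range of 0.751. Its J4 share was 5.36%, on 14 counts, against 11.7% to 13.7%, with a ratio of 0.763. The J shares of a sample sum to the whole, so these are not separate departures. WT replicate 4 had the fewest counts, and parts a and b both showed the high J5 share, at 45.1% and 37.2%.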

How the results depend on the processing

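The J4 difference within Igkv8-16 stayed positive and did not pass under 11 alternatives (1.34 to 4.72 points, the latter with each clonotype counted once) and with each sample left out (0.649 points without WT replicate 4, to 3.07). Over all V-J pairs, where 0 of 270 passed, DESeq2 called 3, the term for the 2 sets 7, and replicates 1 and 2 alone 35 of 285; over all V segments, where 0 of 98 passed, the block called 1 and the term 2; the other alternatives called 0.

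With each clonotype counted once, the J1 difference was -8.72 points and the J5 difference 4.70 points (adjusted exact permutation p = 0.0476 for both), in-frame -1.64 points, CDR3 length 0.122 nucleotides, share of all counts -0.12 (log2), and the gaps to other V segments -7.08 points for J5 and -5.94 points in-frame; the number of clonotypes has no such version. Without clonotypes of 1 count, in-frame was -0.851 points and the clonotype number 11.4 (exact permutation p = 0.0873). With part a only, length was 0.0170 nucleotides. With part b only, in-frame was -0.666 points and the J5 gap -3.87 points. In replicates 1 and 2 alone, in-frame was 4.09 points, length was 0.120, the clonotype number -12.8 at 424 counts and -7.51 at 261 counts (a depth chosen after seeing the data), and the pair with J2 0.14 (log2). In replicates 3 to 5 alone, in-frame was -2.30 points, opposite in sign to the other set, and the clonotype number 10.9. In in-frame joins, J1 was -7.23 points and the clonotype number -1.09 at 184 counts. Without the top joint, J1 was 1.02, J2 0.378, J5 -4.33 and in-frame -0.807 points. Against the Igkv8 family, the J5 gap was -9.23 points. With the term for the 2 sets, 1 Igkv8-16 pair passed (J5, log2 0.59). The cause of these changes was not tested, beyond what each setting removes.

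With each sample left out, the ranges were -8.90 to -6.89 points for J1, -3.84 to -1.56 for J2, 6.32 to 12.0 for J5, -1.46 to 1.47 in-frame, -0.0508 to 0.0708 nucleotides for length, -7.83 to 9.17 clonotypes (9 at 261 counts, and -7.83 without WT replicate 4 at 424 counts, which was -4.87 at 261 counts), -4.67 to -2.71 points for the J5 gap, -1.20 to 1.47 for the in-frame gap, and, on the log2 scale, -0.0711 to 0.439 for the share of all counts, and for the pairs -0.34 to 0.23 with J1, -0.33 to 0.24 with J2, 0.16 to 0.76 with J4 and 0.27 to 0.92 with J5.

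With the replicate number as a block, the share of all counts gave 0.20 (log2, adjusted p = 0.277 by edgeR) and the pair with J2 0.0035 (log2), and the block changed no call of Igkv8-16. The exact sign-flip test over 5 pairs cannot go below 0.0625, so it could not pass for J use. Depth limits WT replicate 4 most, with 261 Igkv8-16 counts.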
